A study of Arabidopsis thaliana with 9 samples.

Results

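GIGANTEA (GI) and 3 further flowering-time genes, SMZ, SNZ and AGL24, were followed across Arabidopsis seedlings carrying ssrp1-2 or spt16-1 and wild-type Col-0 seedlings. The 4 genes are those whose probe sets the platform annotation assigns to GI (AT1G22770), SMZ (AT3G54990), SNZ (AT2G39250) or AGL24 (AT4G24540) alone. Each has 1 such probe set, out of 16722 single-gene probe sets for 16548 genes. The mutations lie in the genes for the SSRP1 and SPT16 proteins, which together form FACT, a complex that opens and rebuilds nucleosomes as RNA polymerase II passes. All 3 genotypes are in the Col-0 ecotype, each with 3 arrays of material described as biological replicates. Every array carried RNA from the aerial parts of several pooled 10-day-old plants (100 mg of tissue) grown on 0.5 MS plates. Each mutant is represented by 1 allele. The labels name the alleles without describing them, and they give neither the day length nor the hour of harvest. Nothing states that the pools were grown separately, and the p-values given here cover only the variation among them.

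GI is a large plant-specific nuclear protein of the circadian clock, and its transcript cycles daily with a maximum late in the day. In the photoperiod pathway it acts with the F-box protein FKF1 to remove CDF repressors, which allows CO and then FT to be expressed and flowering to begin in long days. SMZ and SNZ encode closely related AP2-type transcription factors that repress flowering and are targets of the microRNA miR172, while AGL24 encodes a MADS-box factor that promotes flowering together with SOC1. All 4 genes therefore lie on the route to the floral transition, at its light and clock input (GI), among its repressors (SMZ and SNZ) and at its integrating step (AGL24).

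The deposited values are log2 expression values from RMA, which corrects background, brings the arrays to a common distribution and combines the probes of a probe set. Array medians lay between 4.95 and 4.98, and the correlation between replicate arrays over all probe sets was 0.992 to 0.994. SSRP1 and SPT16 had 0 single-gene probe sets, so the mutated genes were not analysed here. The aerial origin was checked on the few markers that were measured. Of 16 genes of green tissue, 2 were measured, and both had high values (RCA, Rubisco activase, 12.25 to 12.40, and LHCB4.1, a light-harvesting protein, 9.99 to 10.37). Of 11 root genes, 2 were measured. EXPA7, an expansin of root hairs, had low values (3.09 to 3.62), and PYK10, a beta-glucosidase abundant in roots, was high (10.77 to 11.47). Of 12 inflorescence and flower genes, 1 was measured, the F-box gene UFO, and it was in the lowest 25% of all values (below 3.13) on all 9 arrays. In bulk tissue, fewer cells that express a gene cannot be told apart from less transcript per cell.

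GI was higher in both FACT mutants than in Col-0. Its log2 value was 8.56, 8.56 and 8.63 on the 3 ssrp1-2 arrays, 8.92, 9.06 and 8.95 on the 3 spt16-1 arrays, and 7.74, 7.75 and 7.82 on the 3 Col-0 arrays. The genotypes did not overlap: every mutant array lay above every Col-0 array, and every spt16-1 array above every ssrp1-2 array. Of all probe sets, 9.37% were separated in this way as higher in ssrp1-2 than in Col-0, 8.53% as higher in spt16-1 than in Col-0, and 4.11% as higher on all 6 mutant arrays. Between the mutants, 7.16% were separated as lower in ssrp1-2 and 8.27% as higher. The means were 8.58 ± 0.04 in ssrp1-2, 8.98 ± 0.07 in spt16-1 and 7.77 ± 0.05 in Col-0 (SD, n = 3 each).

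**Figure D1:**
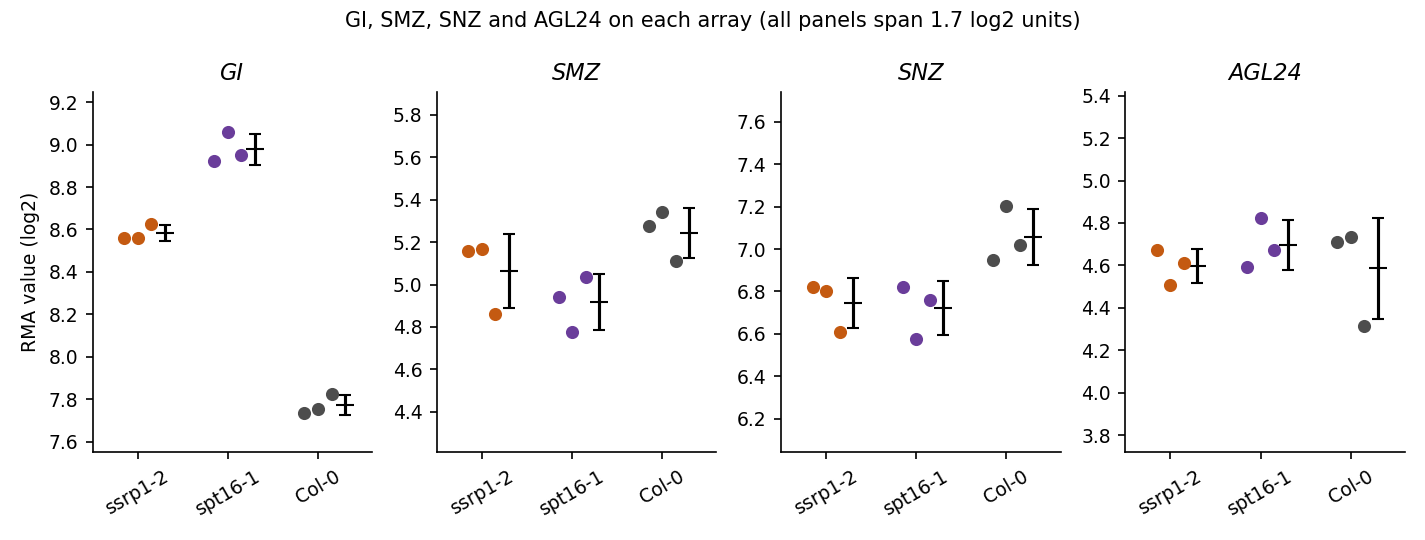
RMA log2 values of GI, SMZ, SNZ and AGL24 on each array (points, 3 per genotype), with the genotype mean and SD beside them (black). The panels have different axis positions and the same span. GI separates into 3 levels with spt16-1 highest and Col-0 lowest, SNZ is below the Col-0 arrays on all 6 mutant arrays, and the genotypes overlap for AGL24.

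Differences were tested with limma in 1 fit of all 9 arrays, and a probe set passed when its Benjamini-Hochberg adjusted p over all 28501 probe sets was under 0.05. In ssrp1-2 against Col-0, GI rose 1.76-fold (log2 fold change 0.81, 95% interval 0.66 to 0.96, limma adjusted p = 4.87e-04). This made GI the 1 of the 4 genes that passed, in a comparison where 2.58% of all probe sets passed (1.74% higher and 0.839% lower). In spt16-1 against Col-0 it rose 2.31-fold (1.21, interval 1.06 to 1.36, limma adjusted p = 8.99e-05), again as the 1 of the 4 that passed, where 2.02% of all probe sets did (1.21% higher and 0.807% lower). Measured against the whole array, 201 probe sets had a larger log2 increase than GI in ssrp1-2 and 40 in spt16-1, of which 100 and 19 were single-gene probe sets.

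Both comparisons with Col-0 share the 3 Col-0 arrays, so the mutants were also tested directly against each other. GI was lower in ssrp1-2 than in spt16-1 (log2 fold change -0.40, interval -0.55 to -0.24), with a limma adjusted p of 0.0385. Here 0.835% of all probe sets passed (0.519% higher and 0.316% lower in ssrp1-2), and GI was the 1 of the 4 genes among them. The call was not stable. It was lost without each of the 3 ssrp1-2 and each of the 3 spt16-1 arrays (limma adjusted p = 0.0923 to 0.120), while the difference itself stayed between -0.42 and -0.35. It was also lost in a fit of the 2 mutants alone (adjusted p = 0.107).

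**Figure D2:**
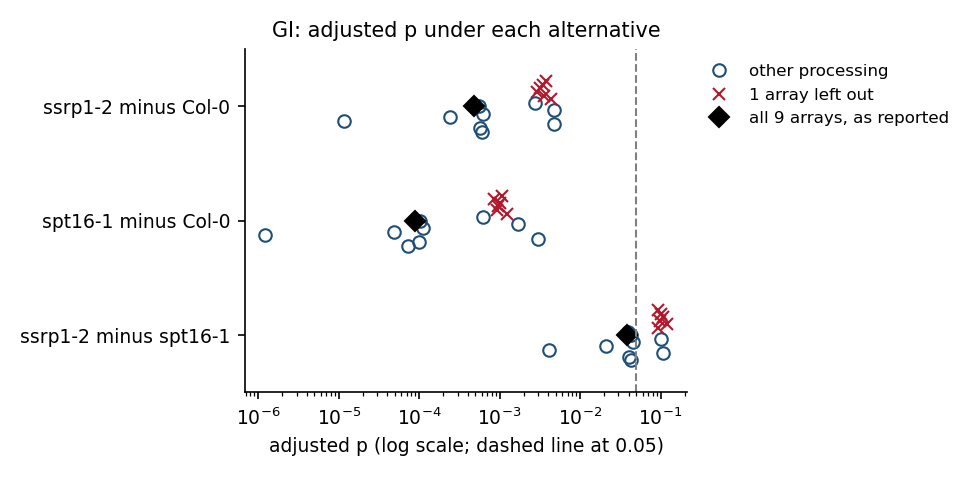
Adjusted p of GI (log axis, dashed line at 0.05) in the 3 comparisons, with all 9 arrays (diamonds), under other processing (circles) and with 1 array left out (crosses). Both comparisons with Col-0 stay under 0.05 at every point, whereas the direct comparison of the mutants, at 0.0385, moves to between 0.0923 and 0.120 without any 1 of its 6 arrays.

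The spread of GI between arrays of 1 genotype was small. Its residual SD was 0.055 on the log2 scale, against a median of 0.141 over all probe sets, and 6.8% of probe sets had a smaller one. The spread includes a tie, since ssrp1-2 replicates 1 and 2 have the same deposited GI value to the last digit. Such ties are common in these values, with 35.9% of probe sets holding the same value on at least 2 arrays of a genotype. limma's moderation raises the SD used for GI to 0.082. Without ssrp1-2 replicate 1 or replicate 2, which removes the tie, GI remained higher in ssrp1-2 than in Col-0, and without each array of the 2 genotypes in turn its adjusted p lay between 0.00288 and 0.00436.

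The floral repressor SNZ had lower values in both mutants, but the differences did not pass. SNZ had log2 values of 6.82, 6.80 and 6.61 in ssrp1-2, 6.82, 6.58 and 6.76 in spt16-1, and 6.95, 7.20 and 7.02 in Col-0. All 6 mutant arrays lay below all 3 Col-0 arrays, an arrangement found for 3.9% of all probe sets in that direction. Taken by mutant, 8.18% of probe sets were separated as lower in ssrp1-2 than in Col-0 and 8.36% as lower in spt16-1. The means were 6.74 ± 0.12 in ssrp1-2, 6.72 ± 0.13 in spt16-1 and 7.06 ± 0.13 in Col-0 (SD, n = 3 each). The log2 fold changes were -0.31 in ssrp1-2 (interval -0.54 to -0.08, limma adjusted p = 0.199) and -0.34 in spt16-1 (interval -0.57 to -0.11, adjusted p = 0.184). These intervals leave out 0 for SNZ taken alone, with unadjusted limma p-values of 0.0138 and 0.00952, and neither held after adjustment over the array. A contrast of the average of both mutants against Col-0, chosen after the values were seen, gave -0.32 for SNZ with a limma adjusted p of 0.111, where 2.89% of all probe sets passed (1.79% higher and 1.1% lower). Between the mutants SNZ differed by 0.02 (interval -0.21 to 0.25).

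SMZ, the close relative of SNZ, also had lower mean values in both mutants, and none of its differences passed. Its log2 values were 5.16, 5.17 and 4.86 in ssrp1-2, 4.94, 4.78 and 5.04 in spt16-1, and 5.27, 5.34 and 5.11 in Col-0. The spt16-1 arrays lay below the Col-0 arrays, as did those of 8.36% of all probe sets, and the ssrp1-2 arrays overlapped with both. SMZ averaged 5.06 ± 0.18 in ssrp1-2, 4.92 ± 0.13 in spt16-1 and 5.24 ± 0.12 in Col-0 (SD, n = 3 each). Its log2 fold change was -0.32 in spt16-1 (interval -0.58 to -0.07, limma adjusted p = 0.256) and -0.18 in ssrp1-2 (interval -0.43 to 0.08, adjusted p = 0.522), where it was -0.078 without ssrp1-2 replicate 3. Directly compared, SMZ in ssrp1-2 stood 0.14 above spt16-1 (interval -0.11 to 0.40, adjusted p = 0.666). Probes shared between these related genes would make their separate values uncertain. The annotated SMZ gene also overlaps its neighbour AT3G54980 in TAIR10.1, and that gene had log2 fold changes of -0.16 in ssrp1-2 and 0.07 in spt16-1, neither of which passed.

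AGL24, the MADS-box promoter of flowering, did not separate the genotypes. Its log2 values were 4.67, 4.51 and 4.61 in ssrp1-2, 4.59, 4.82 and 4.67 in spt16-1, and 4.71, 4.74 and 4.31 in Col-0. Col-0 replicate 3 was the lowest of the 9 arrays, and the other 2 Col-0 arrays lay among the mutants. AGL24 averaged 4.60 ± 0.08 in ssrp1-2, 4.70 ± 0.12 in spt16-1 and 4.59 ± 0.24 in Col-0 (SD, n = 3 each). The log2 fold changes were 0.01 in ssrp1-2 (interval -0.26 to 0.29, limma adjusted p = 0.978) and 0.11 in spt16-1 (interval -0.17 to 0.39, adjusted p = 0.776), and both turned negative without Col-0 replicate 3 (-0.12 and -0.026). The direct difference between the mutants was -0.10 (interval -0.38 to 0.18). The 95% intervals for AGL24 do not reach the log2 fold change measured for GI in either mutant.

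**Figure D3:**
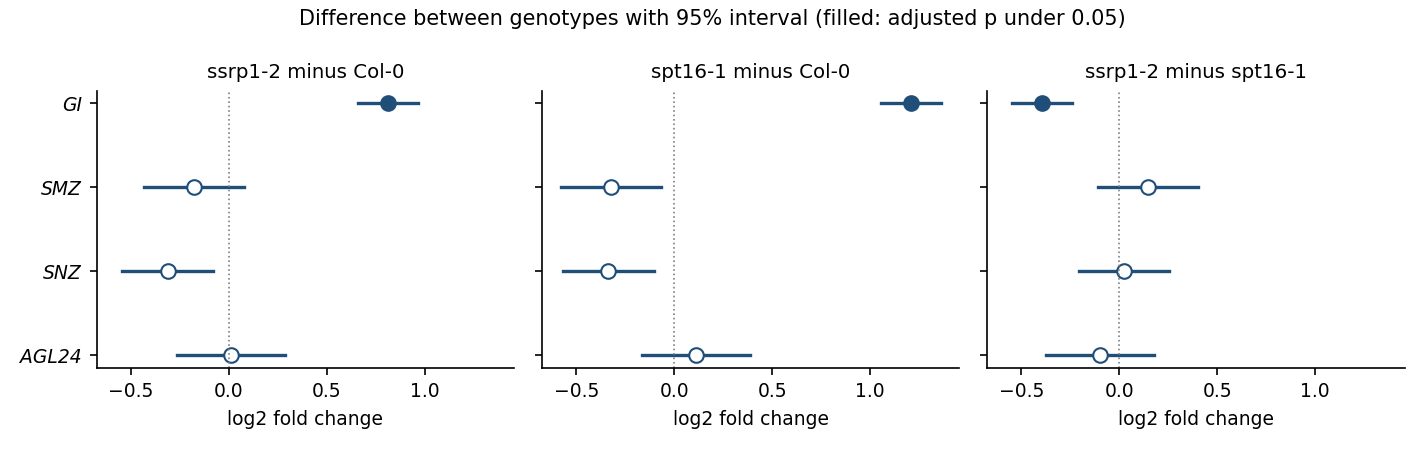
Log2 fold changes of the 4 genes with 95% intervals from limma in the 3 comparisons. Filled points passed at an adjusted p under 0.05: GI at 0.81, 1.21 and -0.40, and no other gene.

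All 4 genes were above the lowest 25% of values on all 9 arrays. That threshold is not a detection call, and none was made. AGL24, at 4.31 to 4.82, lay below the array medians of 4.95 to 4.98, and SMZ, at 4.78 to 5.34, lay around them. Among the 5 measured markers, the log2 fold changes against Col-0 in ssrp1-2 and spt16-1 were -0.38 and 0.09 for PYK10, -0.20 and -0.09 for LHCB4.1, -0.10 and -0.10 for EXPA7, -0.08 and -0.10 for RCA and -0.0067 and 0.09 for UFO. The summed log2 value of the 2 green-tissue genes was 22.29 to 22.41 in ssrp1-2, 22.39 to 22.49 in spt16-1 and 22.51 to 22.77 in Col-0. This sum was lower on all 6 mutant arrays than on every Col-0 array. Taken alone, RCA was separated in this way, and LHCB4.1 overlapped between spt16-1 and Col-0. Of all probe sets, taken singly, 3.9% were lower on all 6 mutant arrays, and no such share was counted for sums. The summed log2 value of the 2 root genes was 14.17 to 14.22 in ssrp1-2, 14.43 to 14.99 in spt16-1 and 14.54 to 14.77 in Col-0. The root sum was lower on every ssrp1-2 array than on the arrays of the other genotypes, and it overlapped between spt16-1 and Col-0. Taken alone, PYK10 was lower on every ssrp1-2 array, and EXPA7 overlapped between the genotypes. Of all probe sets, 8.18% were separated as lower in ssrp1-2 than in Col-0 and 7.16% as lower in ssrp1-2 than in spt16-1. None of the 5 measured marker genes passed, and their part in the results for the 4 genes was not tested.

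The pathway around these genes was covered thinly. Of 157 genes listed for the clock, the photoperiod pathway and other routes to flowering, 22 had a single-gene probe set. None of the listed day- or evening-phased clock genes, the other AP2-type and RAV repressors or the age-pathway genes was among them (0 of 10, 0 of 6 and 0 of 19). CCA1, LHY, TOC1, FKF1, CO, FT, FLC and SOC1 were therefore not analysed here, and neither the phase of the clock nor the output of GI can be read from these values.

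Of the 22 measured genes, 0 passed by limma in ssrp1-2, 0 in spt16-1 and 0 between the mutants, where 2.58%, 2.02% and 0.835% of all probe sets did. At an unadjusted p under 0.05 the counts were 3, 4 and 2. The share of all probe sets at that threshold was not counted, so no excess can be read from these counts. Without moderation 0, 0 and 0 of the 22 passed, where 482, 437 and 123 of all 28501 probe sets did. The median log2 fold change of the 22 genes was 0.02 in ssrp1-2, 0.04 in spt16-1 and -0.04 between the mutants, beside medians within 0.0067 of 0 for all probe sets. The log2 fold changes of these genes against Col-0 were all smaller than those of GI and ranged from -0.18 to 0.34 in ssrp1-2 and from -0.46 to 0.44 in spt16-1.

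Among the measured clock genes, TIC, a nuclear regulator of clock amplitude and period, had the smallest p. TIC had log2 values of 9.67, 9.53 and 9.65 in ssrp1-2, 9.71, 9.74 and 9.77 in spt16-1, and 9.46, 9.18 and 9.43 in Col-0. All mutant arrays lay above all Col-0 arrays, as did those of 4.11% of all probe sets. The log2 fold changes of TIC were 0.26 in ssrp1-2 (limma adjusted p = 0.217) and 0.39 in spt16-1 (adjusted p = 0.0762). The spt16-1 difference passed when an intensity trend was fitted (adjusted p = 0.0148) and when the lowest 25% of probe sets were left out (adjusted p = 0.0482). With the trend, 1024 of all 28501 probe sets passed in that comparison, and 743 of those kept passed without the lowest 25%. FIO1, a methyltransferase that affects the length of the clock period, had 0.17 in ssrp1-2 and 0.15 in spt16-1. XCT (0.04 and -0.02), the small GTPase gene LIP1 (0.02 and -0.0043) and the morning list's AT5G52660 (0.00073 and 0.11) were close to Col-0 in ssrp1-2 and spt16-1, and none passed.

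In the photoperiod list, SPY, an O-fucosyltransferase that binds GI and restrains gibberellin signalling, had log2 fold changes of 0.01 in ssrp1-2 and 0.10 in spt16-1. AT1G69570 had a pair of probe sets that disagreed. The one with the higher mean gave -0.02 in ssrp1-2 and -0.46 in spt16-1 (limma adjusted p = 0.967 and 0.142), and the other gave 0.27 and 0.20 (adjusted p = 0.210 and 0.423), so no direction can be given for this gene. DNF, a ubiquitin ligase that represses CO, was in the lowest 25% of values on 8 of 9 arrays.

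Among flowering-time genes downstream of or parallel to GI, the MADS-box repressor AGL18 had log2 fold changes of 0.23 in ssrp1-2 and 0.28 in spt16-1 (limma adjusted p = 0.355 and 0.281). AGL19, a MADS-box promoter of flowering, had 0.11 and 0.07, and the relatives of SOC1, AGL42, AGL71 and AGL72, were in the lowest 25% of values on 9, 7 and 9 of the 9 arrays. FD, the bZIP partner of FT, had 0.03 and 0.07, and ATC, a relative of FT that inhibits flowering, had -0.12 and -0.03. Neither FD nor ATC passed. The autonomous-pathway genes FY, FPA and LD, which keep the repressor FLC low, had log2 fold changes of -0.05, -0.18 and -0.02 in ssrp1-2 and 0.05, 0.03 and 0.02 in spt16-1, and AT2G30120 of the same list had 0.06 in ssrp1-2 and 0.01 in spt16-1. The 3 gibberellin receptor genes differed in sign, and none passed. GID1A had 0.34 in ssrp1-2 and 0.44 in spt16-1 (limma adjusted p = 0.228 and 0.120), GID1B -0.17 and -0.01, and GID1C -0.11 and -0.14.

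**Figure D4:**
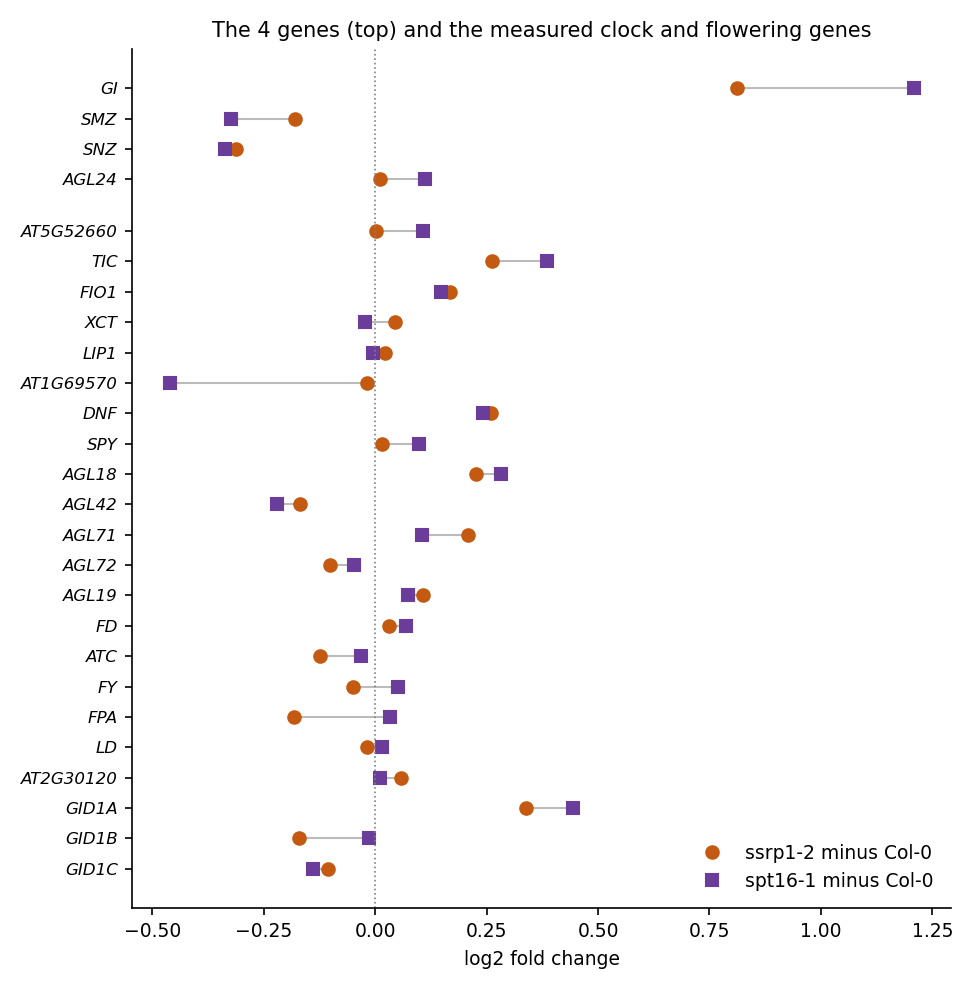
Log2 fold changes against Col-0 in ssrp1-2 (circles) and spt16-1 (squares) for the 4 genes (top) and the 22 measured genes of the clock and flowering lists. GI, at 0.81 and 1.21, lies outside the range of all others, which runs from -0.46 to 0.44.

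Genes on either side of the 4 in the RefSeq gene order of TAIR10.1 were examined where they had a single-gene probe set. The immediate neighbours of GI, PAB3 and PFL, were not analysed here. The next genes outward, AT1G22750 and AT1G22790, had log2 fold changes of -0.10 and -0.04 in ssrp1-2 and -0.24 and -0.13 in spt16-1. Their limma adjusted p-values were 0.722, 0.888, 0.379 and 0.690 in that order, so no direction is read from them. Around SNZ, AT2G39240 and AT2G39260 had -0.20 and 0.02 in ssrp1-2 and 0.06 and 0.06 in spt16-1. Around AGL24, AT4G24530 and AT4G24550 had -0.06 and -0.06 in ssrp1-2 and 0.0059 and -0.04 in spt16-1. On the side of SMZ away from AT3G54980, TON1A was not analysed here and TON1B had 0.22 in ssrp1-2 and 0.04 in spt16-1. None of these neighbours passed in any of the 3 comparisons.

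The genes with the profile most like that of GI were sought among the other single-gene probe sets whose genotype means spanned at least 0.5 on the log2 scale, which were 988. By Pearson's r over the 9 arrays these were AT1G56300 (r = 0.993), AT5G56240 (0.984), AT2G05915 (0.982), AT4G34950 (0.982) and AT1G51610 (0.979). The 9 points are 3 arrays of each of 3 genotypes, and r is given as a description. AT1G56300 had 9.09, 9.04 and 9.12 in ssrp1-2, 9.85, 9.78 and 9.65 in spt16-1, and 7.86, 7.65 and 7.81 in Col-0. AT1G56300 had 3 separate levels with spt16-1 highest, the order of GI for which the search selected. Its log2 fold changes of 1.31 in ssrp1-2 and 1.99 in spt16-1 were larger than those of GI. The fold changes of the other 4 genes lay between 0.69 and 1.04 in ssrp1-2 and between 0.96 and 1.67 in spt16-1.

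**Figure D5:**
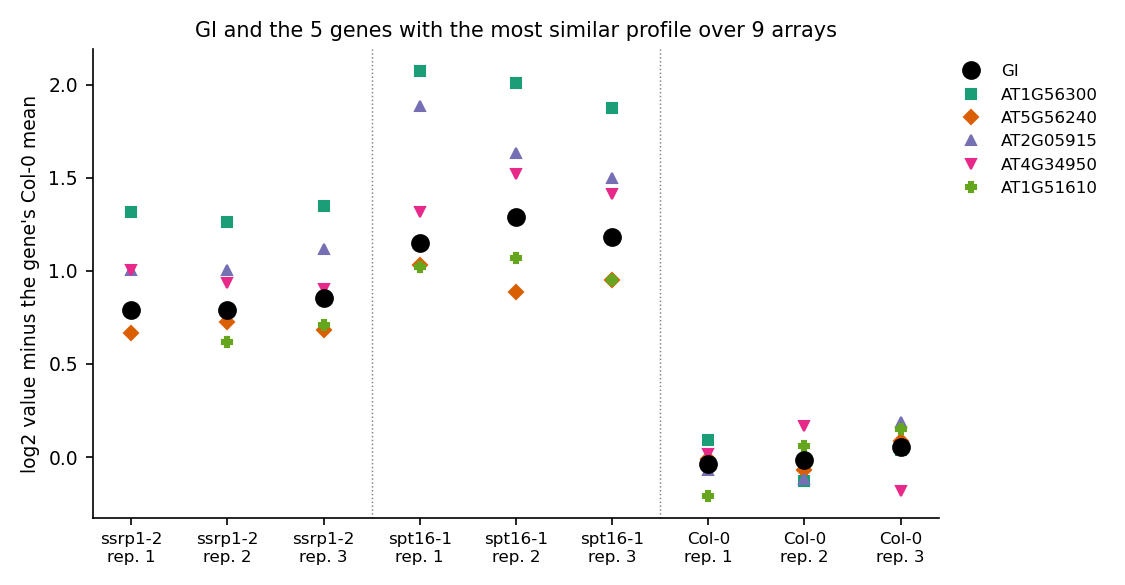
Log2 values minus each gene's own Col-0 mean for GI (black circles) and the 5 genes with the highest Pearson r to it over the 9 arrays. All 6 genes are above their Col-0 arrays on every mutant array and highest in spt16-1. The 5 genes were selected for this likeness to GI on the same arrays, so it is not a separate result. AT1G56300 shows the largest differences.

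The same search gave lower r for the other genes. Their own genotype means spanned less than the 0.5 required of candidates, so genes with changes as small as theirs were left out. The r values are therefore not compared between the genes. For SNZ the first were AT3G05400 (r = 0.947), AT1G04770 (0.930), AT3G05165 (0.925), AT1G32520 (0.912) and AT1G71200 (0.901). For SMZ they were AT1G32520 (0.912), AT3G05400 (0.886), AT1G74770 (0.873), AT5G19850 (0.864) and AT3G56290 (0.862). AT1G32520 and AT3G05400 stood in both lists, with log2 fold changes of -0.41 and -0.50 in ssrp1-2 and -0.56 and -0.58 in spt16-1. For AGL24 the nearest profile was that of AT3G28918 (r = 0.818), followed by AT1G49940, AT1G19470, AT4G24015 and AT1G14642 at 0.668 to 0.680.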

How the data were processed

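Each of the 9 single-colour Affymetrix arrays took 200 ng of total RNA, per the labels. The authors' deposited log2 values come from RMA and Affymetrix Expression Console 1.3, both named in the submitters' processing notes. The genome build and RMA version are not given in the sources used here. RMA equalises arrays, so a difference in total RNA would not show.

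No filter or further scaling was applied. A linear model of all 28501 probe sets used lmFit and eBayes of limma 3.58.1 (R 4.3.3), with 6 residual and 2.76 prior degrees of freedom and two-sided p-values, adjusted by Benjamini-Hochberg within a comparison. It was checked on simulated data. With 3 arrays a group, an exact permutation p cannot go under 0.1, so none is given, and this number of arrays limits the precision. GEO's platform annotation named 1 gene for 16722 probe sets, several for 759 and none for 11020; TAIR10.1 RefSeq gave locus names and gene order only.

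The 4 genes and all lists were chosen with earlier results of these data known. Named genes were the 4 genes, up to 4 per list with the smallest p (further ones are given for completeness), the adjacent genes, extended outward to the next measured one after coverage was seen, and the 5 most similar profiles. A gene with several probe sets was counted by the one with the highest mean. A promoter motif search was not made, and no sequence is shown. Alternatives were an intensity trend, robust or no moderation, array weights, median centring, repeated quantile normalization, leaving out the lowest 25% of probe sets, fits of 2 genotypes, a replicate block and leaving out each array.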

Additional observations from a re-analysis of the deposited data

Results flagged for a closer look

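GI differed between the mutants. Its log2 fold change of ssrp1-2 over spt16-1 was -0.40, with means of 8.58 ± 0.04 in ssrp1-2 and 8.98 ± 0.07 in spt16-1 (SD, n = 3 each). It is listed because the effects of the 2 mutations on the same gene differed in a direct test (limma adjusted p = 0.0385), a call that was lost without any 1 of the 6 mutant arrays.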

How the results depend on the processing

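GI stayed higher in ssrp1-2 and in spt16-1 than in Col-0, and past the threshold, under the 9 alternatives that left out no replicate (log2 fold change 0.80 to 0.81 and 1.19 to 1.21) and without each array of the 2 genotypes compared (0.79 to 0.84 and 1.17 to 1.24). Its adjusted p reached at most 0.00476 and 0.00297. Averaging both mutants, added after the values were seen, gave 1.01 for GI. Between the mutants, GI at -0.40 lost its call in the fit of the 2 genotypes alone (-0.40, adjusted p = 0.107), with the replicate block (-0.40, adjusted p = 0.102) and without each array (-0.42 to -0.35). The replicate numbers did not pair the arrays: same-numbered arrays deviated together at r = -0.135 to 0.069, and in 6 of 18 cases an array correlated best with its own number in another genotype.

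SMZ, SNZ and AGL24 did not pass under any of these alternatives. AGL24 in ssrp1-2 was 0.01 and reversed to -5.33e-06 with arrays centred on their medians and ranged from -0.12 to 0.087 without each array, and in spt16-1 from -0.026 to 0.19. SNZ between the mutants ranged from -0.048 to 0.091. Without each array, SMZ ranged from -0.245 to -0.078 in ssrp1-2 and from 0.073 to 0.25 between the mutants. Of the 22 clock and flowering genes, 1 (TIC) passed in spt16-1 with the intensity trend and 1 (TIC) without the lowest 25% of probe sets. In the same comparison 1024 of all 28501 probe sets passed with the trend. Without the lowest 25%, 743 of the probe sets that were kept passed, so no excess is read from 1 gene.

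The background count of 735 probe sets in ssrp1-2 was 1190 with the intensity trend, 482 without moderation, 399 in the fit of the 2 genotypes and 405 to 501 without each array. The 576 in spt16-1 became 1024 with the trend, 271 in the fit of the 2 genotypes, 380 with the replicate block and 293 to 340 without each array. The 238 between the mutants became 497 with the trend, 123 without moderation, 80 in the fit of the 2 genotypes, 117 with the block and 91 to 128 without each array.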

Other observations

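Identical values recurred across arrays. Of 28501 probe sets, 16903 (59.3%) had the same deposited value, to the last digit, on at least 2 of the 9 arrays, 4903 (17.2%) on at least 4 and 4 on all 9. No pair of arrays stood out: over the 36 pairs, 5.08% to 7.66% of probe sets were identical, and over pairs of 1 genotype 5.59% to 7.36%. Among the genes described above, FD had 5.31 on 4 arrays, on ssrp1-2 replicate 1 and all 3 spt16-1 arrays, and GID1C had the same value on 6 arrays. GI and SNZ each had 1 value that 2 arrays shared, and SMZ and AGL24 had none.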
